A study of Homo sapiens with 28 samples.

Results

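The regions described here carried a peak of N6-methyladenosine (m6A) in every NB4 library and in no library of the other cell lines. They were chosen from 14 lists of peaks, 1 for each immunoprecipitated (IP) library. Peaks that overlapped by at least 1 base on the same strand of chromosomes 1 to 22 and X were merged across all lists, which gave 86263 regions. A region was kept when all 6 NB4 libraries had a peak in it and none of the 8 HepG2 and K562 libraries did. This left 2915 regions, called NB4-only below, out of 16984 regions with a peak in all 6 NB4 libraries. Each region was placed in the annotation by its best summit, the one with the highest -log10 q among the 14 lists. The presence and absence of peaks chose these regions, so their absence from HepG2 and K562 is a description and not a finding.

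The assay was methylated RNA immunoprecipitation sequencing (MeRIP-seq) on RNA purified with the chromatin fraction (caRNA) after removal of ribosomal RNA. NB4 is an acute promyelocytic leukemia line, K562 a chronic myelogenous leukemia line and HepG2 a hepatoma line. The NB4 libraries were 3 labelled Control and 3 labelled RBFOX2 KD. Control cells had received a non-targeting short hairpin RNA by lentivirus, and RBFOX2 KD cells a short hairpin RNA against RBFOX2, an RNA-binding protein. No NB4 library came from cells without a hairpin, so every value for NB4 is from transduced cells. The HepG2 libraries were 2 of unmodified (WT) cells. The K562 libraries were 2 WT, 2 Control and 2 RBFOX2 KD. All of them come from established lines, and nothing in the labels says that libraries of a group were grown as separate cultures, so p-values measure the spread between these libraries.

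m6A is the most common internal modification of messenger RNA and is placed by a methyltransferase built around METTL3 and METTL14, usually within the sequence context DRACH (D is A, G or U, R is A or G, and H is A, C or U). On nascent and other chromatin-bound transcripts it is also found in introns, upstream of genes and on noncoding RNA. NB4 cells carry the PML-RARA fusion, which holds granulocytic maturation at the promyelocyte stage, and they mature when given retinoic acid. A peak needs both methylation and a transcript, and the peak lists do not tell one from the other. A region absent from HepG2 and K562 may thus be a transcript those cells lack.

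The NB4 lists held 29511 to 39707 peaks on the chromosomes used, with median widths of 243 to 258 bases. Reads estimated from the background level of the lists were 10.8, 14.1 and 16.2 M in NB4 Control 1, 2 and 3, against 21.9, 18.6 and 16.8 M in NB4 RBFOX2 KD 1, 2 and 3. The HepG2 lists held 22635 and 27358 peaks, and the K562 lists 35577 to 44043. The lists fitted their labels. Of 11 promyelocytic markers, NB4 libraries had peaks in 9 to 10, with 31 to 38 peaks summed, K562 in 2 to 5 and HepG2 in 3. ELANE, the gene of neutrophil elastase, had no peak in any library. Of 9 erythroid markers NB4 libraries listed 1 to 2, and of 10 hepatocyte markers 0.

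Sequences around the summits of NB4-only regions are shown for strong regions in protein-coding genes, because the regions with the highest scores were of unlike kinds. Each line is reference sequence of the transcribed strand of hg38 (5′ to 3′, DNA letters), 75 bases to either side of the best summit, and capitals mark GGACT, the commonest m6A motif GGACU in RNA. The TMTC2 window reached a UTR of an annotated transcript, so only 29 bases around its motif are given. The CCDC88C and HSH2D windows lie in introns, the first of them built of repeated short units, the others lie in coding exons, and CCDC88C, HSH2D, ZBTB16 and NLRC3 hold no GGACT.
CCDC88C, intron 23, chr14:91293408-91293558, minus strand: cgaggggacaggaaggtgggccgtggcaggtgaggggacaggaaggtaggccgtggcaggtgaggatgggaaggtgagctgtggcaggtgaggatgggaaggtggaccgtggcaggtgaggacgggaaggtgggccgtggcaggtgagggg
HSH2D, intron 1, chr19:16143794-16143944, plus strand: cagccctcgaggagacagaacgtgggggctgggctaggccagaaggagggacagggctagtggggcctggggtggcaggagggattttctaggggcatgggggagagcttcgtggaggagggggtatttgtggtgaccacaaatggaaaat
SYNPO2, coding exon 4, chr4:119030116-119030266, plus strand: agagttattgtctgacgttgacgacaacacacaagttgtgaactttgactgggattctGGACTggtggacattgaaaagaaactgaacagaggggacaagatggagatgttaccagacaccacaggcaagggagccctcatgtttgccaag
TMTC2, coding exon 3, chr12:82896106-82896134, plus strand: gccttctatactGGACTccttctccttgc
NLRP3, coding exon 2, chr1:247418851-247419001, plus strand: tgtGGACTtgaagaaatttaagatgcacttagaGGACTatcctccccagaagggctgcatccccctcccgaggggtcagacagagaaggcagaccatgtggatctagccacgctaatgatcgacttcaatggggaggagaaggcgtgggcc
ZBTB16, coding exon 2, chr11:114063979-114064129, plus strand: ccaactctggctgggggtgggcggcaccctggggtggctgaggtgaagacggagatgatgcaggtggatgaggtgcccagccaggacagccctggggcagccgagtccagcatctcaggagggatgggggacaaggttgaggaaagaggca
NLRC3, coding exon 5, chr16:3563753-3563903, minus strand: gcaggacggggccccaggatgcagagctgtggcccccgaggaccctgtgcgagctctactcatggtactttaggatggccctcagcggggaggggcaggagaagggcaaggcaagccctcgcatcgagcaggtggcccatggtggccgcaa
The CCDC88C and HSH2D windows held 3 DRACH matches each. SYNPO2 held 8 DRACH matches with 1 GGACT, NLRP3 4 with 2 GGACT, ZBTB16 2 and NLRC3 1. A match is a description of the letters and does not place the modification.

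Strength was expressed as a percentile, the rank of a peak's -log10 q within its own list, so that 100 is the strongest peak of that library. NB4-only regions ranged from the top of the lists to the bottom. Their mean percentile over the 6 libraries had a median of 58.2, against 71.2 for the other 14069 regions with a peak in all 6 NB4 libraries. Of the 2915 regions, 215 (7.38%) averaged above the 90th percentile, and 160 (5.49%) below the 25th. The median SD over the 6 libraries was 12.7 percentile points. Strength belongs to the peaks that chose the regions, so it is given without a test.

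The strongest regions lay in coding and noncoding genes, opposite to genes and outside them. NLRP3, the sensor of the inflammasome, had a region in coding exon 2, near an annotated start inside the gene. The region had percentiles of 96.5, 99.6 and 99.5 in Control and 99.7, 98.8 and 98.7 in KD. All 6 libraries placed it high, with only Control 1 below 98. ZBTB16, the zinc finger repressor PLZF that is fused to RARA in a rare form of promyelocytic leukemia, had one at exon 2 with 99.0, 99.8 and 98.8 in Control and 99.6, 99.2 and 99.9 in KD. HSH2D, a hematopoietic SH2 adaptor, had a region in intron 1 with a mean of 99.6 ± 0.601 (SD, n = 6 libraries). NLRC3, a NOD-like receptor, averaged 99.4 ± 0.264 in exon 5. SH2D3C, another SH2 adaptor, averaged 98.6 ± 0.282 in coding exon 2, also near a start inside the gene. P2RY8, a G protein-coupled receptor of blood cells, averaged 98.0 ± 1.79, with 99.4, 99.2 and 99.3 in Control and 97.9, 97.2 and 94.8 in KD. These P2RY8 percentiles did not overlap between Control and KD. The folds of the same region over local background did, at 24.1, 18.1 and 19.9 in Control and 18.5, 16.8 and 18.6 in KD. GNA15, a hematopoietic G protein subunit, was the least even of the 25 strongest regions, with 93.8, 98.2 and 98.7 in Control and 99.9, 99.9 and 97.3 in KD.

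Several further strong regions were in exons and introns of coding genes. SYNPO2, an actin-binding protein, averaged 99.6 ± 0.288 (n = 6) in exon 4. TMTC2, an enzyme that adds mannose to proteins in the endoplasmic reticulum, had a region in exon 3 at 99.5 ± 0.302 and another in exon 2 at 98.2 ± 1.06. CCDC88C, a regulator of Wnt signaling, averaged 99.6 ± 0.367 in intron 23 of 29. ITPKB (inositol trisphosphate kinase) reached 98.2, CTBP2 (a corepressor) 98.5 and AGAP2 (a GTPase-activating protein) 98.0 on average.

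The highest mean of all, 99.9 ± 0.112, was at a region of 494 bases on chromosome 2 (87348759 to 87349252, minus strand) upstream of the lncRNA ENSG00000287763. Of the 25 strongest regions, the ENSG00000289278 region on chromosome 14 (99.8), the AHRR region in intron 4 (99.7), the ENSG00000232197 region (99.5) and the CACNA2D4 region (99.0) lay opposite to the gene they overlapped. A further pair lay outside genes, 40942 bases from TFRC (98.3) and 101515 bases from RET (98.3).

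**Figure D1:**
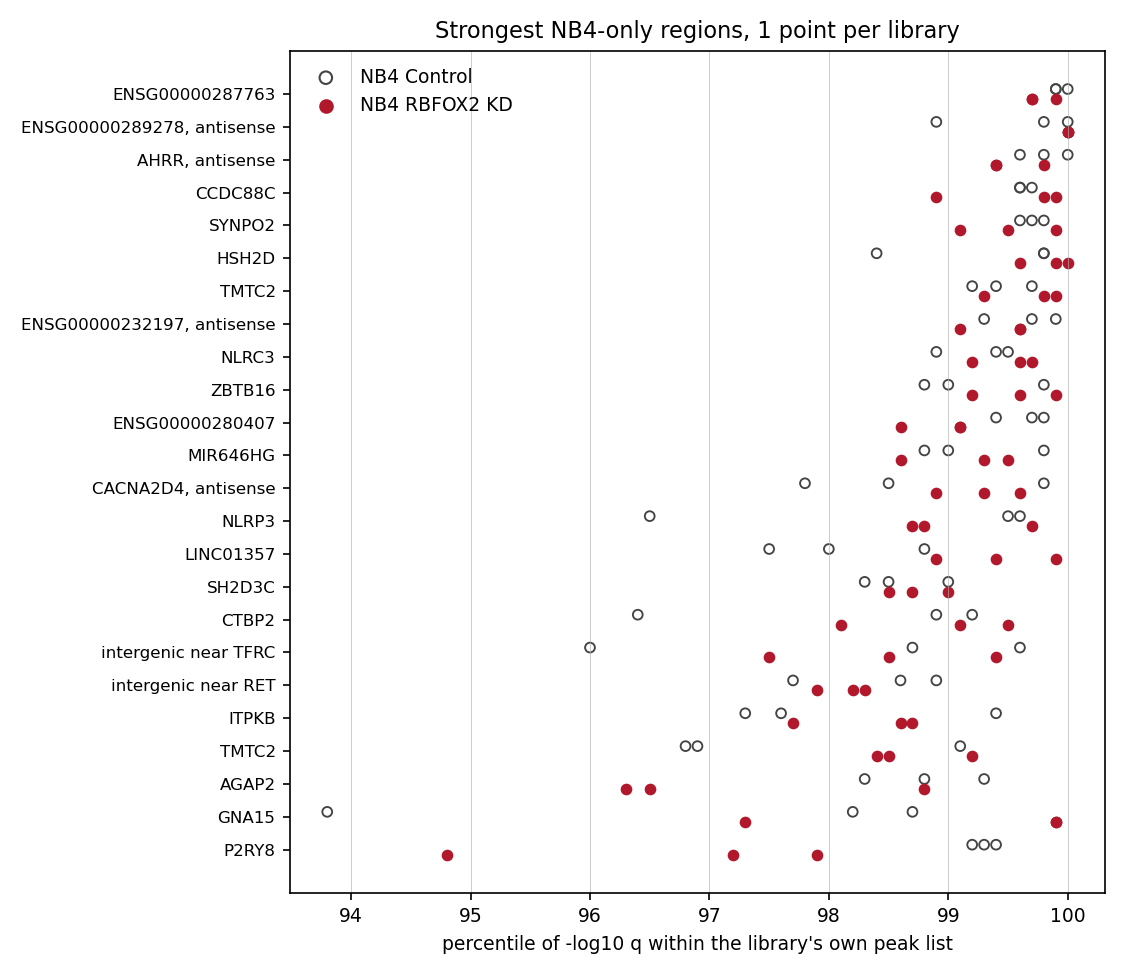
Percentile of the peak in each NB4 library (horizontal axis, 100 is the strongest peak of a list) for the NB4-only regions with the highest means, with open points for the 3 Control and filled points for the 3 RBFOX2 KD libraries. Every point lies above 93, and most regions show both groups intermixed.

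Repeats of short units were found at some of the leading regions. Within 150 bases to either side of a summit, the share of bases equal to the base a fixed step of 2 to 60 further on was taken at its best step. It was 99.6% at the antisense AHRR region, 89.5% at ENSG00000287763 and 63.5% at CCDC88C, but 34.3% at SYNPO2 and 32.9% at NLRP3. A value of at least 80% was reached by 42 of 2915 NB4-only regions (1.44%, Wilson 95% interval 1.07 to 1.94), by 51 of 14069 other regions with a peak in all 6 NB4 libraries (0.362%, 0.276 to 0.476), by 6 of 5461 K562-only regions (0.11%) and by 15 of 3969 HepG2-only regions (0.378%). Among the 100 NB4-only regions with the highest mean percentiles, 3 reached 80% (3%, 1.03 to 8.45), and among the 100 highest of the other regions 2 did. Reads may be placed less surely in such sequence, and the share was computed after the leading regions had been seen.

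By position, NB4-only regions lay in introns more often than anywhere else. Introns held 1173 of 2915 (40.2%, Wilson 95% interval 38.5 to 42.0), promoters 490 (16.8%, 15.5 to 18.2), exons 489 (16.8%), transcript ends 402 (13.8%) and sequence outside genes 361 (12.4%, 11.2 to 13.6). A promoter ran from 1000 bases upstream to 100 bases downstream of any annotated start. Among the other regions with a peak in all 6 NB4 libraries, introns held 19.7%, promoters 24.5%, exons 28.6%, transcript ends 24.7% and sequence outside genes 2.46%. K562-only regions, listed in all 6 K562 libraries and in no library of the other lines, had an intron share of 40.5%. HepG2-only regions had 35.0%, but needed a peak in only 2 libraries, those of HepG2, and none in the other lines. Sequence outside genes held 19.0% and 10.1% in these sets. Regions share libraries and are not replicates, so intervals cover counting error only and no test was made. NB4-only regions were also narrower, with a median of 386 bases against 706 for the other regions in all 6 NB4 libraries, 537 for K562-only and 346 for HepG2-only regions. Width is that of the merged region. NB4-only regions merged peaks of 6 lists and the other regions peaks of more lists, so this difference depends in part on the rule.

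**Figure D2:**
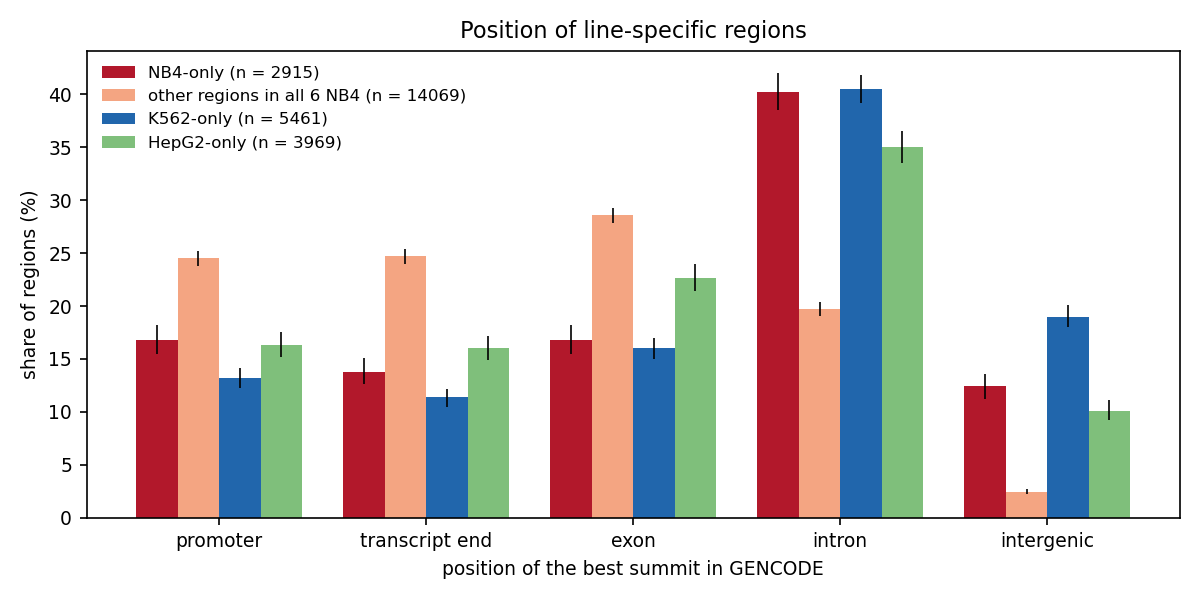
Share of regions (percent) whose best summit falls at a promoter, transcript end, exon, intron or outside genes, for NB4-only regions, the other regions with a peak in all 6 NB4 libraries, K562-only and HepG2-only regions, with Wilson 95% intervals as bars. Introns hold 40.2% of NB4-only regions and 19.7% of the other NB4 regions, and K562-only regions reach 40.5%.

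Within genes, 2097 NB4-only regions (71.9%) lay on the strand of an annotated gene and 354 (12.1%) opposite to one, against 4.68% opposite among the other regions in all 6 NB4 libraries, 10.2% of K562-only and 12.5% of HepG2-only regions. On the canonical transcript, 1237 of the 2097 (59.0%) were in introns, 284 (13.5%) in coding exons, 181 (8.63%) in 3′ UTR exons and 79 (3.77%) in 5′ UTR exons. Intron 1 held 381 of the 1237 (30.8%). Protein-coding genes held 67.0% of all NB4-only regions and lncRNA genes 16.3%. Of the promoter regions, 133 of 490 (27.1%) pointed away from the gene whose start they lay at, against 22% of the promoter regions among the other regions in all 6 NB4 libraries, 33.5% among K562-only and 30.9% among HepG2-only regions.

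The 2097 regions fell in 1170 genes, 907 of them protein-coding and 186 lncRNA genes. In 496 of these genes (42.4%) no HepG2 or K562 library had any peak on the gene's strand, and these genes held 926 of the 2097 regions (44.2%). Of all 8742 genes with a peak in every NB4 library, 589 (6.74%) had none in the other lines. The share in genes with no peak in the other lines was 58.1% for K562-only and 54.7% for HepG2-only regions. The remaining genes had peaks elsewhere in K562 only (213 genes), in HepG2 only (55) or in both lines (406), so there the region, not the gene, was particular to the NB4 lists. The nearest HepG2 or K562 peak on the same strand was a median of 28737 bases away, and 329 regions (11.3%) had one within 1000 bases. These shares follow in part from the rule, which asked for the absence of such peaks.

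Some genes held many NB4-only regions. MIR646HG, a noncoding host gene of a microRNA that spans 566 kb of chromosome 20, held 35, with 53, 53 and 58 peaks in the Control libraries, 79, 73 and 75 in KD and 0 in every HepG2 and K562 library. PTPRN2, a phosphatase-like protein of secretory granules, also held 35, but HepG2 libraries listed 68 and 80 peaks at other places in this gene and K562 libraries 0. COL23A1, a transmembrane collagen, held 24, with at most 1 peak in a K562 library. TRPM2, a cation channel known from phagocytes, held 15, with 18 to 21 peaks in each NB4 library and 0 elsewhere. The lncRNA genes ENSG00000291188, ENSG00000285534 and LINC00869 held 17, 14 and 13. INPP5A, an inositol phosphatase, and P2RY8 held 14 each. AHRR, the repressor of the aryl hydrocarbon receptor, held 13 on its own strand, and K562 libraries listed 4 to 7 peaks elsewhere in it.

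**Figure D3:**
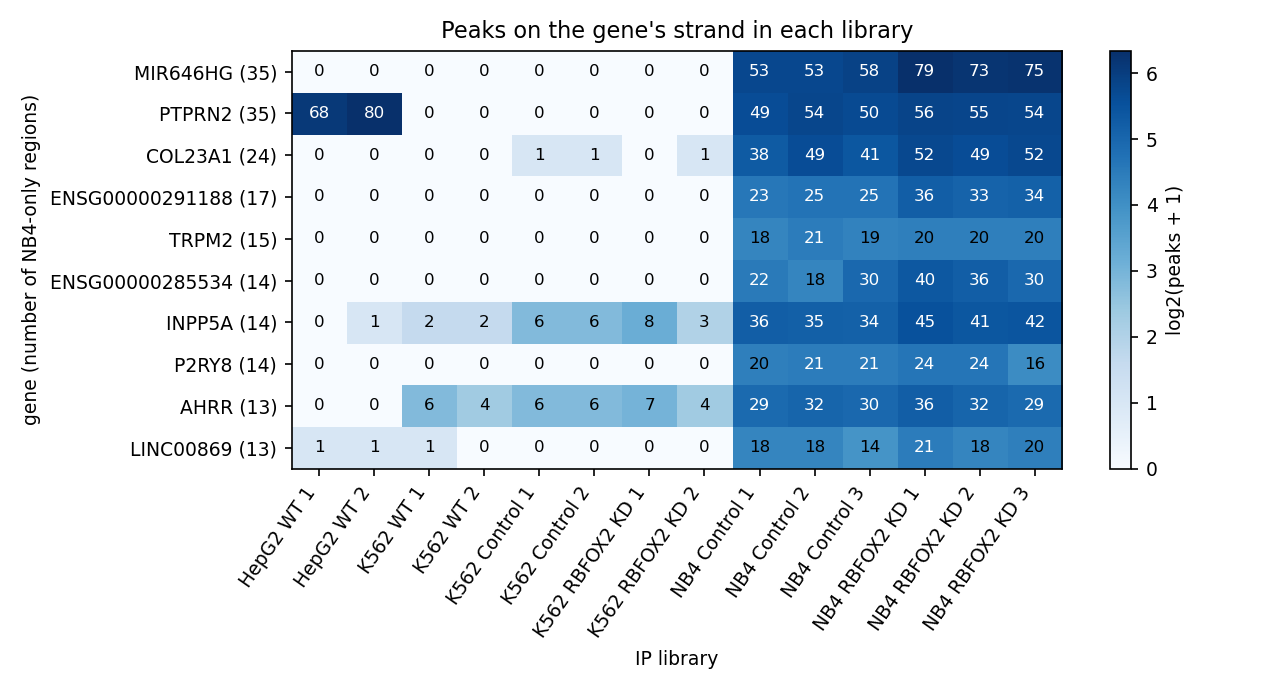
Number of peaks on the gene's strand (printed and colored as log2 of peaks plus 1) in each of the 14 IP libraries, for the 10 genes with the most NB4-only regions (number in brackets). MIR646HG, ENSG00000291188, TRPM2, ENSG00000285534 and P2RY8 have peaks in NB4 libraries alone, while PTPRN2 also has 68 and 80 in HepG2, and INPP5A and AHRR have some in K562.

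Of 359 genes with 2 or more NB4-only regions, 66 had at least 5. Without any peak in the other lines, the leading protein-coding genes after TRPM2 (15) and P2RY8 (14) were WDFY4 (10), known for cross-presentation in dendritic cells, NTNG2 (9), AUTS2 and TRERF1 (8 each), and LRRK1, SH3RF3 and XYLT1 (7 each). AOAH, the enzyme that inactivates bacterial lipopolysaccharide, CR1, a complement receptor, LSP1, a leukocyte actin-binding protein, and RAB44 held 6 each. NLRC3, HVCN1, a voltage-gated proton channel, PRAM1, an adaptor first described as a PML-RARA target, and SIRPB1, a myeloid receptor with close paralogs, held 5 each. P2RY8, CSF2RA and IL3RA lie in the part of X that has an identical copy on Y, so reads cannot be told apart between the copies.

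Genes of the myeloid surface and its signaling held NB4-only regions in the largest share of their genes, among the lists with more than 1 gene with a peak in every NB4 library. Of 41 list genes, 22 had a peak in every NB4 library and 16 of these (72.7%) held an NB4-only region, against 1169 of all 8742 genes with a peak in every NB4 library (13.4%). They were the receptors CSF2RA (4 regions), IL3RA (2), CSF1R and CSF3R for growth factors, the integrins ITGAM, ITGB2 and ITGAL, the chemokine receptors CXCR4 and CCR1, the ectoenzymes CD38 (4) and ANPEP, and CD44 (3), SIRPA, TREM1, FCGR1A and the kinase SYK (2). In 11 of them the other lines had no peak. The strongest was in intron 12 of CSF2RA, with percentiles of 92.8, 91.3 and 99.2 in Control and 99.4, 99.5 and 98.5 in KD. The ITGB2 region in intron 8 had 96.8, 96.5 and 89.0 in Control and 94.1, 94.0 and 96.8 in KD, and the groups overlapped. FCGR1A has near-identical paralogs, so the placement of its reads is uncertain. The lists were drawn up with earlier results of these data known, and no set test was made.

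Of 30 myeloid transcription factor genes, 23 had a peak in every NB4 library. Of these, 9 (39.1%) held an NB4-only region, against 13.4% of all genes with a peak in every NB4 library. CEBPE, the factor of late granulocyte maturation, held 2, and neither HepG2 nor K562 had a peak in the gene. Its exonic region had percentiles of 98.4, 95.4 and 88.9 in Control and 90.6, 88.9 and 87.7 in KD. FLI1 held 4 and RUNX3 1, also without peaks elsewhere. SPI1, which encodes PU.1, held 4, RUNX1 4, IKZF1 3, and PML, GFI1 and STAT3 2, 1 and 1, and each of these genes had peaks at other places in K562 libraries. In SPI1, 3 of the 4 regions lay only 99, 130 and 341 bases from a peak of another line. In RUNX1, a regulator of blood stem cells, K562 libraries listed 6 to 12 other peaks and NB4 libraries 15 to 26 in all.

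Granule and innate immune genes also held NB4-only regions, to be read beside the 13.4% of all genes with a peak in every NB4 library. Of 25 granule genes, 9 had a peak in every NB4 library and 4 (44.4%) an NB4-only region, namely PRTN3, RNASE2, CD63 and MMP9, with none in the other lines. They were of middling strength, from 36.8 ± 17.2 at CD63 to 62.9 ± 12.9 at PRTN3 (percentile, n = 6). Of 37 innate genes, 21 had a peak in every NB4 library and 6 (28.6%) held one, namely NLRP3 (2), TNF (2), TLR2, TLR4, IRAK3 and CASP1, again with no peak in HepG2 or K562. The TNF region over its start had percentiles of 94.4, 90 and 88.9 in Control and 94.0, 83.7 and 92.0 in KD. IRAK3, an inhibitor of Toll-like receptor signaling, averaged 92.0 ± 2.20.

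Among retinoid genes, NB4-only regions lay in RXRA (4), the retinoid X receptor, and DHRS9 (3), a retinol dehydrogenase. RXRA had other peaks in both lines, and DHRS9 had none. TGF-beta genes held 2, at SMAD6 and SKI, of 14 (14.3%), near the 13.4% of all genes with a peak in every NB4 library. Of the m6A machinery 21 of 22 genes had a peak in every NB4 library and 1 (4.76%) held an NB4-only region, which was RBFOX2 itself, in intron 2 of 13. Its percentiles were 72.2, 6 and 11.3 in Control and 29.4, 38.5 and 44 in KD, and they overlapped. The lymphoid list gave CD4 alone (3 regions), 1 of 1 gene with a peak in every NB4 library. The erythroid and megakaryocytic list gave 0 of 5, and no hepatocyte gene had a peak in every NB4 library.

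At promoters, the 10 strongest NB4-only regions had mean percentiles from 96.9 to 99.9. Apart from ENSG00000287763, ZBTB16, NLRP3 and SH2D3C, they lay at ENSG00000280407 (99.3), LINC01357 (98.8), NTSR1 (97.9), a neurotensin receptor, RPS6KB2-AS1 (97.5), ENSG00000287407 (97.3) and an internal start of PTPRN2 (96.9). The ZBTB16, NLRP3 and SH2D3C summits lay in coding exon 2, near annotated starts inside these genes and not at the gene's outer start. The ENSG00000280407 region lay 994 bases from a peak of another line. Strong promoter regions thus included both coding genes and noncoding RNA.

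Runs of neighboring regions were common. With gaps under 20 kb on 1 strand, 1643 regions (56.4%) stood in 502 runs of 2 or more, the longest of 22, and 818 (28.1%) lay outside every gene of their strand. The run with the most such regions covered 36.4 kb of chromosome 5 (1460901 to 1497283, plus strand), opposite to LPCAT1, a lysophospholipid acyltransferase. It held 20 regions, with 32, 31 and 24 peaks in Control, 29, 36 and 31 in KD and 0 in all other libraries. A run of 14 on chromosome 12 (132335883 to 132355970, minus strand) lay 6293 bases from GALNT9, with 16 to 18 peaks in each NB4 library. Another on chromosome 12 (116662428 to 116737737, plus strand) had 20 regions, 13 of them outside genes of their strand, around SPRING1 and RNFT2, with 1 peak in each of 4 K562 libraries between its regions. On chromosome 6, 13 regions (423821 to 484905, plus strand) lay beyond IRF4, a factor of lymphoid and myeloid cells encoded on the same strand, and reached into sequence opposite to EXOC2. They had 18 or 19 peaks in each Control and 22 to 25 in each KD library. A run of 13 near the other end of chromosome 6 (170144490 to 170189529, minus strand) had 16 to 18 peaks in each NB4 library.

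The rule left sharp edges. With no peak in the other lines, 1534 regions had a peak in 5 of 6 NB4 libraries, and 432 had a peak in all 6 NB4 libraries and in exactly 1 other library. Just outside were an intronic PRTN3 region (mean percentile 95, no peak in Control 1), ARHGEF18 (92.8, none in Control 1) and RETN (92.1, none in Control 3), as well as ICOSLG (99.7, a peak in K562 WT 1), SLC16A3 (99.0, HepG2 WT 2) and FADS2 (98.9, HepG2 WT 2). In those 3 libraries the peak stood at percentiles of 21.0, 26.0 and 23.5. Among the strongest regions inside were those at ENSG00000287763 and ENSG00000289278. The weakest, named after their values were seen, were at NFAM1 (6.92), opposite to SFRP4 (7.95) and at GAK (9.05).

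The m6A context was present at the summits. GGACU occurred within 75 bases of the summit in 678 of 2915 NB4-only regions (23.3%, Wilson 95% interval 21.8 to 24.8) and in 762 of 5830 windows of the same length 300 bases to either side (13.1%, 12.2 to 14), an excess of 10.2 points. Motifs were searched on the strand of the peak only. The other regions in all 6 NB4 libraries had 27.6% and an excess of 14.8 points, K562-only regions 30.7% and 19.1 points, and HepG2-only regions 21.3% and 8.88 points. DRACH, which is short and common, was in 93.0% of the NB4-only summit windows and 90.6% of the flanking windows. UGCAUG, the classical RBFOX2 motif, was in 3.98% and 3.55%, and AGAUG, also searched because of RBFOX2, in 26.8% and 19.2%. For AGAUG, the other regions in all 6 NB4 libraries had 23.3% and 18.6%. Without tandem repeats GGACU stood at 23.3% of NB4-only summits. The windows had a median of 55% G and C in NB4-only regions, 43.0% in K562-only and 48.3% in HepG2-only regions. For the other regions in all 6 NB4 libraries, the best summit could come from a HepG2 or K562 list. The parts of base composition, peak strength and summit source in these shares were not tested.

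**Figure D4:**
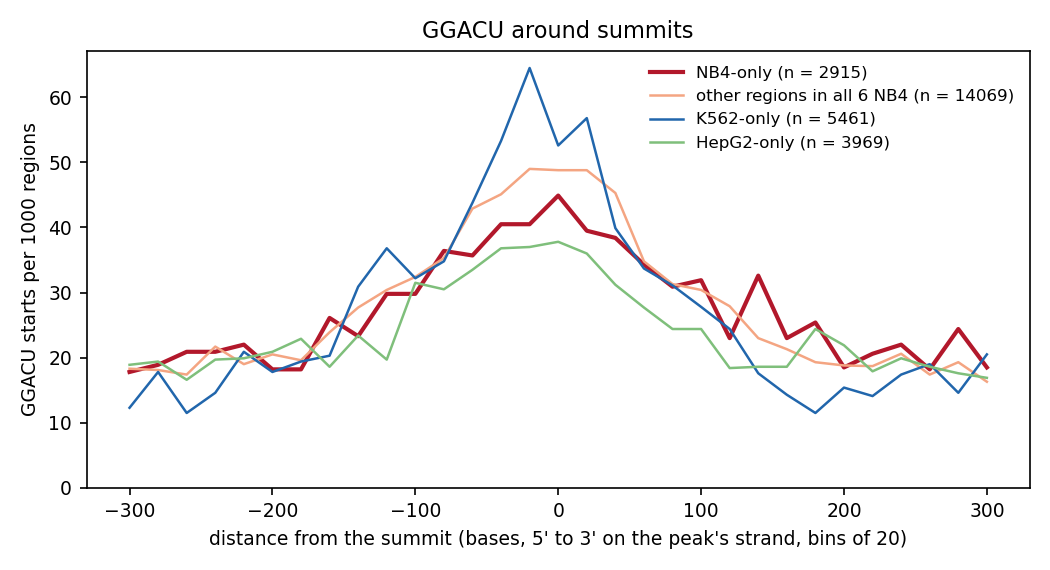
Starts of GGACU per 1000 regions in bins of 20 bases (vertical axis) against distance from the summit (horizontal axis, 5′ to 3′), for NB4-only regions and 3 comparison sets. All 4 sets peak near the summit, NB4-only regions at 44.9 per 1000, K562-only regions highest and HepG2-only regions lowest.

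RBFOX2 KD and Control were compared within NB4 at regions that kept a peak in all 6 libraries. A region whose peak was gained or lost outright in either group could not enter, so only differences in strength were measured. The comparison addresses whether m6A signal at these regions differs when RBFOX2 is depleted. The peak lists give no transcript level, so the depletion of RBFOX2 itself could not be checked here. Averaged over the 2915 regions, the percentile was 54.0, 56.0 and 57.8 in the Control libraries and 62.7, 60.3 and 59.0 in KD, and the groups did not overlap. The means were 55.9 ± 1.89 and 60.7 ± 1.9 (SD, n = 3), a difference of 4.75 (exact permutation test, two-sided, p = 0.1, the smallest that 3 against 3 allows). The other regions in all 6 NB4 libraries also averaged higher in KD, at 66.2 ± 1.76 in Control and 70.5 ± 1.14 in KD, a difference of 4.26 (exact p = 0.1). The KD lists were longer and the KD libraries deeper, and the part of depth was not tested. Set against the other regions of the same library, NB4-only regions averaged -10.3 points in Control and -9.84 in KD, a difference of 0.496 (exact p = 0.6).

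The summit fold, the pileup over the local background as the peak caller reports it, did not separate the groups. Its median log2 over the NB4-only regions was 2.77, 2.66 and 2.64 in Control and 2.63, 2.65 and 2.66 in KD. The difference was -0.0437 on the log2 scale (exact permutation test, two-sided, p = 0.4) and turned to 0.0256 without NB4 Control 1. For the other regions it was 0.0232 (exact p = 0.6). Relative to the other regions of the same library, the NB4-only median stood at -0.181, -0.203 and -0.163 in Control and at -0.225, -0.214 and -0.309 in KD. These groups did not overlap (exact p = 0.1, the smallest possible).

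**Figure D5:**
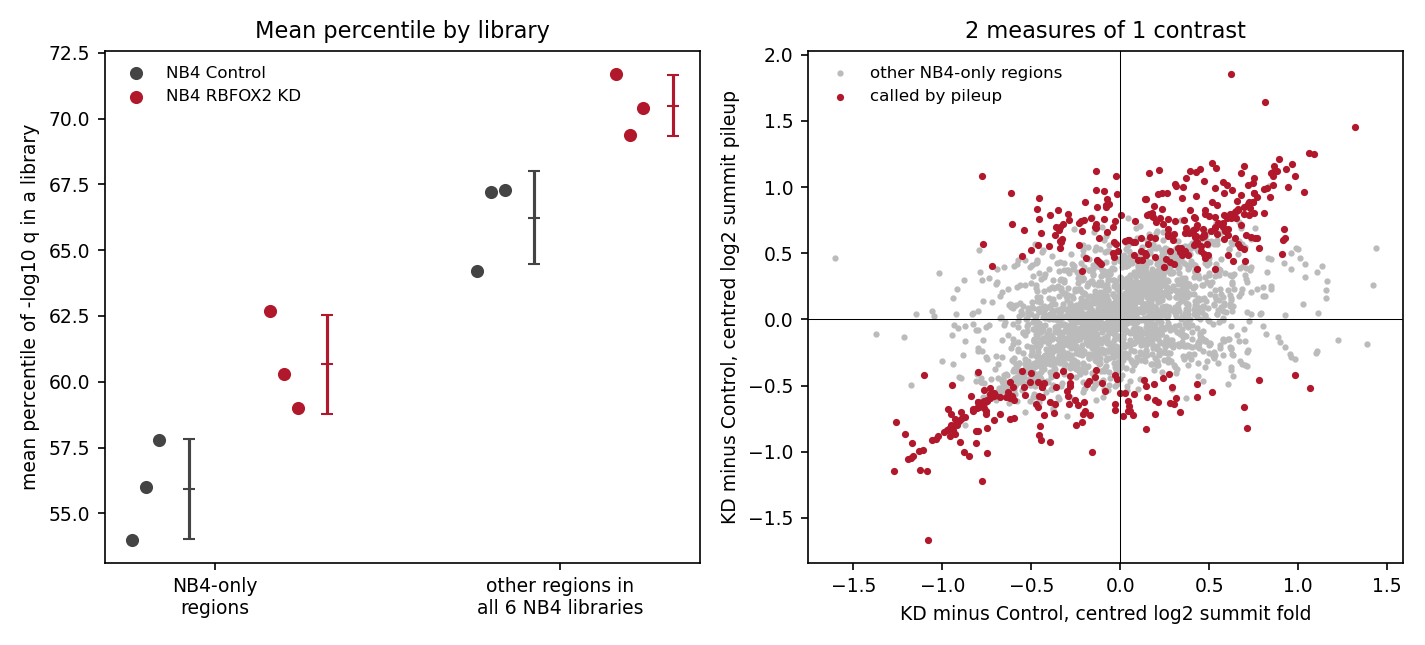
Left, mean percentile of -log10 q in each NB4 library over NB4-only and over the other regions with a peak in all 6 NB4 libraries, with mean and SD of 3 libraries per group beside the points (the axis does not start at 0). Right, KD minus Control for each NB4-only region by centred log2 summit fold (horizontal) and centred log2 summit pileup (vertical), with the 418 regions called by pileup in red. Both kinds of region sit higher in KD on the left, and called regions on the right lie above and below 0.

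Region by region, limma on the centred log2 summit fold of all 16984 regions with a peak in all 6 NB4 libraries called 0 of 2915 NB4-only regions higher and 0 lower in KD at an adjusted p under 0.05, as it called 0 (0%) of all regions tested. The smallest adjusted p was 0.181, and a count of 0 does not show that no region changed. At an unadjusted p under 0.05, 160 NB4-only regions were higher and 266 lower (14.6% in all), against 14.1% of all regions tested. After centring, the 3 KD values lay above all 3 Control values at 225 NB4-only regions (7.72%), against 9.79% of all regions tested, and below them at 399 (13.7%), against 11.3%.

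Summit pileup, the depth of IP reads without division by the local background, gave a different count. By limma on centred log2 pileup, 253 NB4-only regions (8.68%) were higher and 165 (5.66%) lower in KD at an adjusted p under 0.05, against 6.84% and 5.83% of all regions tested. Of these 418, 325 had the same direction in summit fold. Pileup follows the amount of RNA as well as its methylation, and the parts of each were not tested. In introns, 143 (12.2%) were called higher and 38 (3.24%) lower, against 15.2% and 2.78% of all intronic regions tested. Outside genes the counts were 38 (10.5%) and 14 (3.88%), against 11.2% and 4.38%. At promoters they were 28 (5.71%) and 43 (8.78%), against 3.5% and 7.11%, in exons 17 (3.48%) and 43 (8.79%), against 3.84% and 6.54%, and at transcript ends 27 (6.72%) each, against 4.41% and 7.09%. In each class but transcript ends, NB4-only regions thus leaned to the same side as all regions of that class. MIR646HG had 14 of its 35 regions called higher and 0 lower, while its median difference in summit fold was 0.0148 on the log2 scale.

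Among regions whose groups did not overlap, the largest differences upward in summit fold were in RFX8, a gene of the regulatory factor X family, and SLFN12, a Schlafen gene. RFX8 had folds of 3.17, 3.85 and 2.91 in Control and 7.61, 10.7 and 8.85 in KD, a log2 difference of 1.44 ± 0.243 (SE, limma, adjusted p = 0.181). SLFN12 had 7.49, 8.03 and 8.03 in Control and 26.5, 19.8 and 17.8 in KD (1.42 ± 0.226, limma, adjusted p = 0.181). In both, the lowest KD value stood well above the highest Control value, yet neither passed the threshold. SPPL3, an intramembrane protease, had 3.69, 2.79 and 3.8 against 9.12, 8.59 and 9.05 (1.38). SIRPD, a member of the signal regulatory protein family with close paralogs, had 3.31, 5.86 and 5.49 against 13.0, 13.1 and 9.92 (1.32), and only this region of the 8 also passed by pileup (limma, adjusted p = 0.00268). The pileup differences of SPPL3 (-0.189) and of the AHRR region (-0.157) had the opposite sign. The others were in AHRR (1.22), ENSG00000278971 (1.16), beyond PIEZO1 (1.16) and opposite to LINC01362 (1.14). In the last, KD 1 carried most of the difference, with a fold of 11.9 against 2.7 and 3.17 in the other KD libraries.

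Downward, the largest difference was outside genes near BUB3, with folds of 12.9, 5.42 and 21.0 in Control and 3.36, 5.24 and 3.03 in KD, a log2 difference of -1.60 ± 0.457 (SE, limma, adjusted p = 0.217), and there Control 2 stood close to KD 2. Its pileup difference had the opposite sign, at 0.466. IFIT2, an interferon-induced gene, had 12.3, 13.4 and 10.7 in Control and 4.61, 5.35 and 5.14 in KD (-1.27 ± 0.211, limma, adjusted p = 0.181). SHANK1, a scaffold protein, had 18.7, 15.2 and 15.6 against 9.74, 6.5 and 5.9 (-1.20). NKD2, an inhibitor of Wnt signaling, had 18.3, 13.7 and 10.4 against 6.77, 6.60 and 5.14 (-1.18). As with the upward regions, all those named here were chosen for groups that did not overlap. NUS1, which acts in dolichol synthesis, stood at -1.26, SCARB1, a lipoprotein receptor, at -1.21, PPP2R3B, a phosphatase subunit whose gene also has an identical copy on Y, at -1.21 and RASA3, a Ras GTPase-activating protein, at -1.17. By pileup, IFIT2, NUS1, PPP2R3B, SHANK1 and NKD2 were called lower (limma, adjusted p from 0.00342 to 0.0272).

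Of the 76 NB4-only regions in genes of the lists, 5 (6.58%) had centred KD folds above all Control folds and 13 (17.1%) below them. Over all regions tested these shares were 9.79% and 11.3%, and none of the 76 passed the test on summit fold. CXCR4, the homing receptor of marrow cells, was among the lower ones, at -0.81 on the log2 scale, with percentiles of 96.4, 93.1 and 98.1 in Control and 77.3, 81.4 and 82.2 in KD. By pileup, 13 of the 76 (17.1%) were called higher and 4 (5.26%) lower, against 6.84% and 5.83% of all regions tested. The summits called higher all lay in introns of the canonical transcript, some of them in the same gene, as at CD38, FLI1, RUNX1, CD4 and CSF2RA. Of all regions tested whose position class was intron, 15.2% were called higher. The regions called lower included CXCR4, TREM1 and SKI (limma, adjusted p from 0.00268 to 0.041). Pileup and summit fold differed in direction at some of these regions and agreed at others. An FLI1 region in intron 1 was called higher by pileup (1.08), yet its fold difference was -0.777. Its KD folds lay below all Control folds. SKI had a fold difference of 0.143, while CXCR4 and TREM1 were lower by fold too. ITGAM, the integrin CD11b that marks maturing granulocytes, had a region called higher by pileup (1.64 on the log2 scale, limma, adjusted p = 0.000842), with percentiles of 33.7, 50.4 and 64.8 in Control and 94.0, 99.2 and 84.6 in KD. Its summit fold difference of 0.815 did not pass, and its fold groups overlapped after centring.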

How the data were processed

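m6A MeRIP-seq on caRNA gave 1 deposited peak list for each of 14 IP libraries of the series' 28 samples; the input libraries are not analysed here. The authors trimmed reads with Trimmomatic 0.39, aligned them to hg38 with HISAT2 2.1.0, split strands with SAMtools 1.9 and called peaks per library and strand with MACS2 at q under 0.01. The deposited columns are the authors' score, the summit fold ratio, the -log10 p-value and the -log10 q-value. From them, the summit pileup (coverage) and local mean were recovered, whole within 0.01 at 100% of summits in 11 lists, and rescaled reads were assumed for NB4 Control 3 and both HepG2 lists.

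The lists hold no read counts. Summits were annotated with GENCODE release 44. Log2 summit fold, centred on the library median, was tested with limma 3.58.1 (R 4.3.3, trended prior, Benjamini-Hochberg adjustment over all 16984 regions). In a check on simulated data the test missed most changes of 1 on the log2 scale. Group differences of single values used exact permutation tests over libraries in SciPy. Members and gene lists were chosen with earlier results of these data known. Named regions were the 25 with the highest mean percentile, all in list genes, the 10 genes with most regions, the 8 largest differences in each direction among regions whose groups did not overlap, 5 runs outside genes, edges of the rule, and the 10 strongest promoter regions. Wilson intervals are at 95% and cover counting error only. Results for 1 gene are not reported here.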

Additional observations from a re-analysis of the deposited data

How the results depend on the processing

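Alternatives gave 2050 to 3597 NB4-only regions, 2927 to 3597 of them when each library was left out in turn, with the highest without NB4 Control 1. Leaving out libraries moved the promoter share between 15.8% and 17.2%, the intron share between 39.8% and 43.3%, the share in genes with no other peak between 40.9% and 44.4%, the GGACU share between 22.5% and 23.6%, the percentile difference between 3.45 and 5.54, the fold difference between -0.0695 and 0.0256, which was reversed without NB4 Control 1 alone, and the limma count between 0 and 0. With lists cut to equal size, promoters held 18.4%, genes with no other peak 37.0% and GGACU 25.4%. Promoters on the strand of the peak held 12.2%, and 500 bases around starts 19.3%. Genes with no other peak held 36.1% with summit windows merged and 49.8% over 1 kb from other lines. A 50-base motif window gave 17.0%. Summit pileup gave 418 called regions in place of 0.

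Same-numbered NB4 libraries showed no shared deviations, with correlations of -0.0373, -0.033 and -0.11. These values do not settle whether such libraries were prepared together, which the labels do not say. With the replicate number as a block, limma still called 0, and the differences of 4.75 and -0.0437 had exact sign-flip p of 0.25 and 0.75 (smallest possible 0.25). Of 150 alternatives, 138 gave a count near the main one, a share within its Wilson interval or a difference of the same sign. For counts this was loose, since 2050 against 2915 regions passed as near. Leaving out tandem repeats was chosen after seeing the data. Depth limits the comparison within NB4, and weak peaks in shallower lists can be missed, so absence of a peak is not absence of m6A.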

Other observations

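NB4-only regions were spread unevenly over the chromosomes. Chromosome 7 held 256 (8.78%), chromosome 1 held 204 (7%) and chromosome 19 held 194 (6.66%). Of the regions with a peak in all 6 NB4 libraries, the NB4-only share was highest on chromosome 21 (28%, 75 of 268), the chromosome of TRPM2, PDE9A, RUNX1 and ITGB2, and on chromosomes 5 and 13 (24.7% each), and lowest on chromosome 3 (9.13%, 65 of 712).

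Further protein-coding genes with at least 4 NB4-only regions and no peak in HepG2 or K562 included GPR141 and PARVG, an actin-linked protein of blood cells (5 each), BCL11A, a repressor of fetal globin genes (4), DYSF (4), S1PR3, a sphingosine phosphate receptor (4), SLFN11 (4), ST3GAL4 (4) and UNCX, a homeobox gene with 5 to 6 peaks in each NB4 library (4). Among genes with at least 10 regions, the median log2 difference of summit fold between KD and Control ran from -0.25 in P2RY8 to 0.32 in PDE9A, a cyclic GMP phosphodiesterase, and none of these regions passed the test.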
